A study of Mus musculus with 9 samples.

Results

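Fibronectin, 3 thrombospondins, 2 tenascins, periostin, SPARC and 2 CCN proteins make up a group of 10 genes for fibronectin and matricellular proteins, and their transcripts are described here in the aorta of mice infused with angiotensin II (Ang II). The members were taken by gene symbol and Entrez identifier from the 18830 genes of the files, all 10 were found, and all 10 passed the filter on low counts. RNA of suprarenal abdominal aortas was sequenced in 9 libraries of 3 groups. The first 2 groups were ApoE knockout mice with osmotic pumps that delivered 1000 ng/kg/min of Ang II over 28 days (3 libraries) or 14 days (3 libraries), and the last was a sham control of the same ApoE knockout genotype (3 libraries). The sham group was not given Ang II, the series text describes it as saline, and the day of its collection is not stated. The labels give 14 and 28 days, but the series text also describes pumps run for 28 days and a harvest at that time without a separate harvest for the 14-day mice, so the times here are those of the labels. All 9 libraries thus share the ApoE deletion, which makes mice prone to atherosclerosis, and the groups differ by Ang II infusion and its length. Age, sex and whether a library pools animals are not stated in the labels, so the p-values below measure the spread between libraries.

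Fibronectin is an adhesive glycoprotein that cells assemble into fibrils through integrins, and it serves as a scaffold for other matrix proteins. Matricellular proteins are secreted into the matrix but act mainly as regulators, binding receptors, growth factors and proteases rather than bearing load. In an artery they are made by smooth muscle cells, fibroblasts, endothelial cells and, for some, macrophages, and several are known to be induced by injury, mechanical load and transforming growth factor beta (TGF-beta).

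The promoters of 3 members are shown as examples. Ccn1 and Tnc had their highest group mean at 14 days, and Thbs4 at 28 days. Fn1, Thbs1, Thbs2, Sparc and Ccn2 also had their highest group mean at 14 days. The sequences are RefSeq windows of GRCm38.p6, from 250 bases before to 50 bases after an annotated start, 5′ to 3′ on the gene's strand. Capitals mark TATAAA, the core of a TATA box, and GGAATG, the motif of the TEAD factors through which YAP and TAZ act, both searched on both strands, so that CATTCC is GGAATG on the opposite strand.
Ccn1, chr3:145649936-145650235, minus strand: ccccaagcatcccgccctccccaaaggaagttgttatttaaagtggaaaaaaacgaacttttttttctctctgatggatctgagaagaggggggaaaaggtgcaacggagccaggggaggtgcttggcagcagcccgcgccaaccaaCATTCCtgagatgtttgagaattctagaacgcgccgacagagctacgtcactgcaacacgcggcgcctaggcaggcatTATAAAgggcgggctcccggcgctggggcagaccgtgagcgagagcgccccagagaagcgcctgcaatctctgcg
Tnc, chr4:64046966-64047265, minus strand: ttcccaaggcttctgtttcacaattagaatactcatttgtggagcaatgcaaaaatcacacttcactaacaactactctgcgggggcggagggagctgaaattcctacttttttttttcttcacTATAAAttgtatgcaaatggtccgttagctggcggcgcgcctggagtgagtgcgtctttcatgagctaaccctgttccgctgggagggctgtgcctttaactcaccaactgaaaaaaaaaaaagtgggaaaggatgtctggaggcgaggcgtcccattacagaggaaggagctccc
Thbs4, chr13:92794769-92795068, minus strand: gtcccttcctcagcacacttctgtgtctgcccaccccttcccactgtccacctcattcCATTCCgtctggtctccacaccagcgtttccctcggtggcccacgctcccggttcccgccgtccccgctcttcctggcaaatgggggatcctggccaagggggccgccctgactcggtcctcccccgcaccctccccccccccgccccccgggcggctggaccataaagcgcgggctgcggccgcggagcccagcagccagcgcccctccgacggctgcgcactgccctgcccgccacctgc
TATAAA began 25 bases before the start in Ccn1 and 126 bases before the start shown in Tnc, and 13.6% of all 32851 promoter windows of this length hold it. The opposite-strand GGAATG began 103 bases before the start in Ccn1 and 192 bases before it in Thbs4. Of the same 32851 windows, 14.7% hold GGAATG on either strand. The windows of Sparc and Thbs2, whose means were also highest at 14 days, are not shown. That of Sparc held none of the motifs searched, and that of Thbs2 held TATAAA on the opposite strand only. The windows of Postn and Tnxb, whose means were highest in sham, are not shown either. A Postn window held TATAAA beginning 26 bases before its start. That of Tnxb held no TATAAA or GGAATG, but held the AP-1 motif, TGANTCA with N for any base, 55 bases before its start. These matches describe the letters only, and a link to the time courses was not tested.

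Library totals were 9609690, 11990870 and 13050368 expected counts in the 28-day replicates 1 to 3, 13569092, 14923936 and 14286805 in the 14-day replicates, and 9999430, 13564489 and 12313141 in the sham replicates. Levels between libraries are given in CPM, counts scaled to a common library total after scaling by the trimmed mean of M values (TMM). Smooth muscle markers (7 genes, among them Myh11 and Acta2) were read at high levels in all libraries labelled as aorta, while the sample titles call the tissue muscle. Their summed level was 1988 to 6117 CPM at 28 days, 3559 to 16265 CPM at 14 days and 9408 to 28605 CPM in sham. Markers of neighbouring tissues differed between libraries of one group. The 6 skeletal muscle markers summed to 13330 CPM, 4438 CPM and 91.8 CPM in 28-day replicates 1 to 3, against at most 16.9 CPM at 14 days and 43.5 CPM in sham, and Myh4 was at 0 in the 6 libraries of 14 days and sham. Nerve and Schwann cell markers summed to between 60.9 and 1938 CPM at 28 days, 23.6 and 1738 CPM at 14 days and 21.4 and 4145 CPM in sham. Macrophage markers summed to 12683 CPM in 14-day replicate 2 and to 2163 and 2215 CPM in the other two 14-day libraries, against 2074 to 3468 CPM at 28 days and 331 to 1496 CPM in sham. Apoe itself was counted in all 9 libraries, at 22.5 to 648 CPM, and no comparison here rests on that deletion.

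The members ranged from Sparc, at 1584 to 4605 CPM over the 9 libraries, to Thbs4, at 1.16 to 36.4 CPM. On the scale of CPM per kilobase of annotated exon, which allows genes to be compared, Sparc was the highest member in all groups, at 657 ± 203 at 28 days, 933 ± 270 at 14 days and 554 ± 129 in sham (SD, n = 3 each). Fn1 and Ccn2 came next, with Fn1 at 108 ± 50.5, 308 ± 13.6 and 129 ± 12.2 CPM per kilobase and Ccn2 at 108 ± 71.0, 287 ± 99.97 and 238 ± 129 CPM per kilobase in the same order of groups. Fn1 and Ccn2 overlapped at 28 days and at 14 days, while in sham every Ccn2 library, at 159 to 388 CPM per kilobase, lay above every Fn1 library, at 121 to 143 CPM per kilobase. Postn followed at 70.2 ± 23.8, 97.9 ± 21.98 and 106 ± 41.3 CPM per kilobase, and Thbs4 was the lowest member, at 9.13 ± 1.67, 2.12 ± 2.14 and 2.13 ± 2.81 CPM per kilobase. Fn1 and Sparc together held 69.1% to 73.6% of the members' summed CPM at 28 days, 68.5% to 77.9% at 14 days and 59.5% to 68.5% in sham.

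Compared with sham, the 14-day aortas had more Fn1, Thbs1, Sparc and Ccn1 in every library, and the 28-day aortas had more Thbs1, Thbs2 and Thbs4 in every library. Groups did not overlap, with 14 days higher, for 4 of 10 members, against 12.6% of all 14741 genes tested. The same count at 28 days was 3 of 10, against 12.2% of all genes, and no member lay wholly below sham at 14 days or at 28 days, against 13.5% and 9.46% of all genes. Between the times, Fn1, Thbs1, Tnc and Ccn1 were lower at 28 days than at 14 days in every library (4 of 10 members, against 5.71% of all genes) and Thbs4 was higher in every library (1 of 10, against 4.35%). No member passed edgeR's quasi-likelihood test after Benjamini-Hochberg adjustment over all genes (threshold 0.05), and neither did any other gene, a share of 0%, in any of the 3 comparisons or for the mean of both Ang II times against sham. At an unadjusted p under 0.05, 4 members were higher at 14 days than in sham, against 13.1% of all genes, and 0 lower, against 10.4%. At 28 days against sham 1 was higher, against 7.96%, and 0 lower, against 5.89%. At 28 days against 14 days 0 were higher, against 3.86%, and 4 lower, against 2.27%. DESeq2 called 3 members higher at 14 days than in sham, against 8.27% of its genes, and 0 lower, against 4.2%. It called 0 at 28 days against sham, where 4.03% of genes were called higher and 2.66% lower. It called 3 lower at 28 days than at 14 days, against 0.182%, and 0 higher, against 0.608%. For the mean of both times against sham, 1 member was higher at an unadjusted edgeR p under 0.05 and by DESeq2, against 11.4% and 7.61%, and 0 were lower, against 10.1% and 3.94%. The 2 comparisons with sham share the sham libraries. In these bulk samples, fewer cells of a type and less RNA per cell cannot be told apart.

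**Figure D1:**
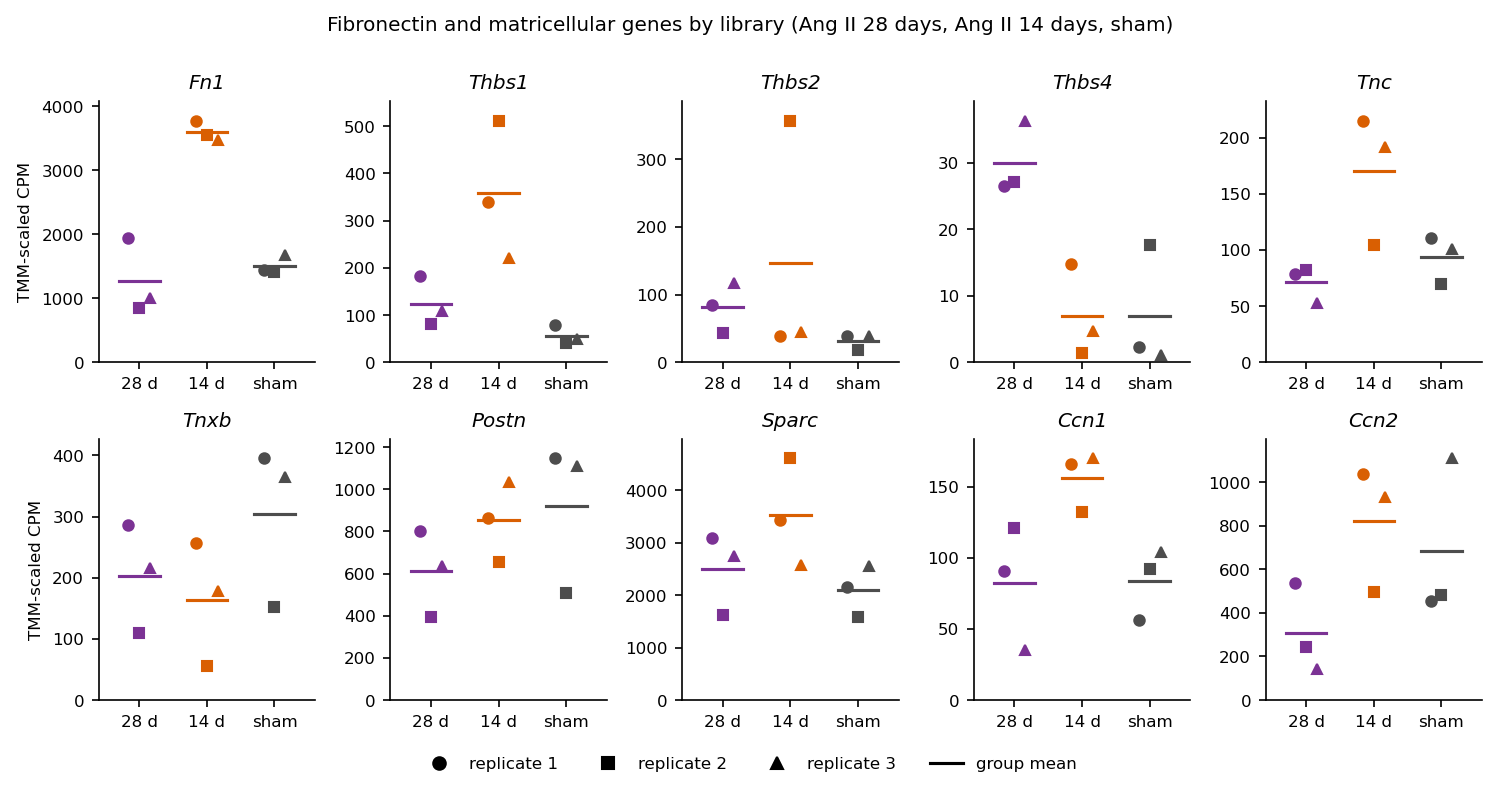
TMM-scaled CPM (y axes, each from 0) of the 10 members in every library, with the groups Ang II 28 days, Ang II 14 days and sham from left to right, symbols for replicates 1 to 3 and a line at the group mean. The 14-day points of Fn1, Thbs1 and Ccn1 all lie above both other groups, and the 28-day points of Thbs4 all lie above both other groups.

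Fn1, which encodes fibronectin (Entrez 14268, GRCm38.p6 chromosome 1, 71585473 to 71653280), had 1938, 841 and 1009.9 CPM in 28-day replicates 1 to 3, 3775, 3543 and 3471 CPM in the 14-day replicates, and 1440.4, 1411 and 1672 CPM in sham. The 14-day libraries lay close together and apart from all others, the lowest of them 1.79-fold above the highest library of the other groups, whereas the 28-day and sham libraries overlapped. The 14-day level was 2.38-fold that of sham (log2 1.25 ± 0.34 SE, edgeR unadjusted p = 0.00612, adjusted p = 0.117), and DESeq2 gave an adjusted p of 0.00215. The 28-day level was lower than the 14-day level by 1.51 ± 0.34 on the log2 scale (edgeR unadjusted p = 0.00222, adjusted p = 0.770, DESeq2 adjusted p = 0.000970), with the 26th smallest p of all genes in that comparison. At 28 days against sham the log2 difference was -0.26 ± 0.34 (edgeR adjusted p = 0.857), and with each replicate left out in turn it ranged from -0.71, without 28-day replicate 1, to -0.03, without 28-day replicate 2. Across the 14-day libraries Fn1 varied 1.09-fold, the summed macrophage markers 5.86-fold and the summed smooth muscle markers 4.57-fold, and the part of cell content in the Fn1 levels was not tested.

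The thrombospondins are large multi-subunit glycoproteins. Thrombospondin-1 and -2 are trimers that restrain blood vessel growth through CD36 and bind CD47, and thrombospondin-1 can also activate latent TGF-beta. Thbs1 (Entrez 21825, chromosome 2, 118111876 to 118127133) had 183, 80.6 and 108 CPM in the 28-day replicates, 339, 512 and 222 CPM in the 14-day replicates, and 78.0, 40.5 and 48.9 CPM in sham. The 3 groups did not overlap and stood in the order 14 days, 28 days and sham, although 28-day replicate 2 exceeded sham replicate 1 only 1.03-fold. Thbs1 was 6.41-fold higher at 14 days than in sham (log2 2.68 ± 0.45, edgeR unadjusted p = 0.000314, adjusted p = 0.117), which was the 23rd smallest p of all genes, and DESeq2 gave an adjusted p of 9.96e-07. At 28 days it was 2.22-fold higher than in sham (log2 1.15 ± 0.43, edgeR adjusted p = 0.285, DESeq2 adjusted p = 0.0943), and the log2 difference was 0.75 without 28-day replicate 1. From 14 to 28 days the log2 difference was -1.53 ± 0.43 (edgeR adjusted p = 0.770, DESeq2 adjusted p = 0.0488). Thbs1 was the only member whose groups did not overlap when the 6 Ang II libraries were set against sham, a separation found for 8.57% of all genes, and no member lay wholly below sham, against 3.97%. Its log2 difference for the mean of both times was 1.91 ± 0.40 (edgeR adjusted p = 0.125, DESeq2 adjusted p = 5.05e-05). Platelets store thrombospondin-1, and the 5 platelet markers summed to 52.4, 79.5 and 88.2 CPM in the 28-day replicates, 43.0, 357 and 31.3 CPM in the 14-day replicates and 26.0, 20.5 and 28.3 CPM in sham. The highest sum was in 14-day replicate 2, the library with the most Thbs1 and the most macrophage markers, where Pf4 gave 332 CPM and Ppbp 16.3 CPM. The other platelet markers were within the range of the other libraries or below it: Itga2b was at 4.90 CPM, Gp9 at 0.360 CPM and Gp1ba at 3.03 CPM, its lowest level of the 9 libraries. The part of platelet or macrophage RNA in the Thbs1 levels was not tested. Without that library, the log2 difference from sham at 14 days was 2.35 (edgeR adjusted p = 0.237).

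Thbs2 (Entrez 21826, chromosome 17, 14665500 to 14694262) had 84.3, 43.9 and 117 CPM at 28 days, 38.8, 357 and 44.7 CPM at 14 days, and 39.0, 17.5 and 38.7 CPM in sham. All 28-day libraries exceeded all sham libraries, while at 14 days only replicate 2, the library richest in macrophage markers, did so by a wide margin. The log2 difference from sham was 1.37 ± 0.87 at 28 days (edgeR adjusted p = 0.587). At 14 days it was 2.21 ± 0.89 (edgeR adjusted p = 0.189, DESeq2 adjusted p = 0.0469), and without 14-day replicate 2 it was 0.41 (edgeR adjusted p = 0.754). Between the times the difference was -0.84 ± 0.86, and 0.98 without that library.

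Thrombospondin-4, a pentamer found in tendon, skeletal and heart muscle and nerve, had a different time course. Thbs4 (Entrez 21828, chromosome 13, 92751586 to 92794818) was at 26.6, 27.2 and 36.4 CPM in the 28-day replicates, against 14.9, 1.37 and 4.68 CPM in the 14-day replicates and 2.24, 17.7 and 1.16 CPM in sham. These levels rest on 243, 379 and 479 counts at 28 days, 212, 19 and 69 counts at 14 days and 21, 247 and 13 counts in sham. The 28-day libraries lay together and the lowest was 1.51-fold above the highest library of the other groups. The log2 difference from sham at 28 days was 2.09 ± 1.10 (4.25-fold, edgeR adjusted p = 0.486, DESeq2 adjusted p = 0.262), that from 14 days was 2.11 ± 1.10 (edgeR adjusted p = 0.774), and that of 14 days from sham was -0.02 ± 1.07. In the 6 libraries of 14 days and sham, Thbs4 followed the summed nerve and Schwann cell markers in order without exception, from 17.7 CPM of Thbs4 beside 4145 CPM of markers in sham replicate 2 to 1.16 CPM beside 21.4 CPM in sham replicate 3. At 28 days, replicates 1 to 3 had 26.6, 27.2 and 36.4 CPM of Thbs4 beside 60.9, 1938 and 861 CPM of nerve markers and 13330, 4438 and 91.8 CPM of skeletal muscle markers. The order in the 6 other libraries was noticed in these values, and the part of nerve or skeletal muscle content in the Thbs4 levels was not tested. Tendon and cartilage markers summed to 9.60 to 15.5 CPM at 28 days, 20.3 to 69.5 CPM at 14 days and 10.6 to 29.0 CPM in sham. Without sham replicate 2 the 28-day difference from sham was 4.14 (edgeR adjusted p = 0.182), and without the 3 nerve-rich libraries (28-day replicate 2, 14-day replicate 1 and sham replicate 2) it was 4.19 (edgeR adjusted p = 0.295).

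**Figure D2:**
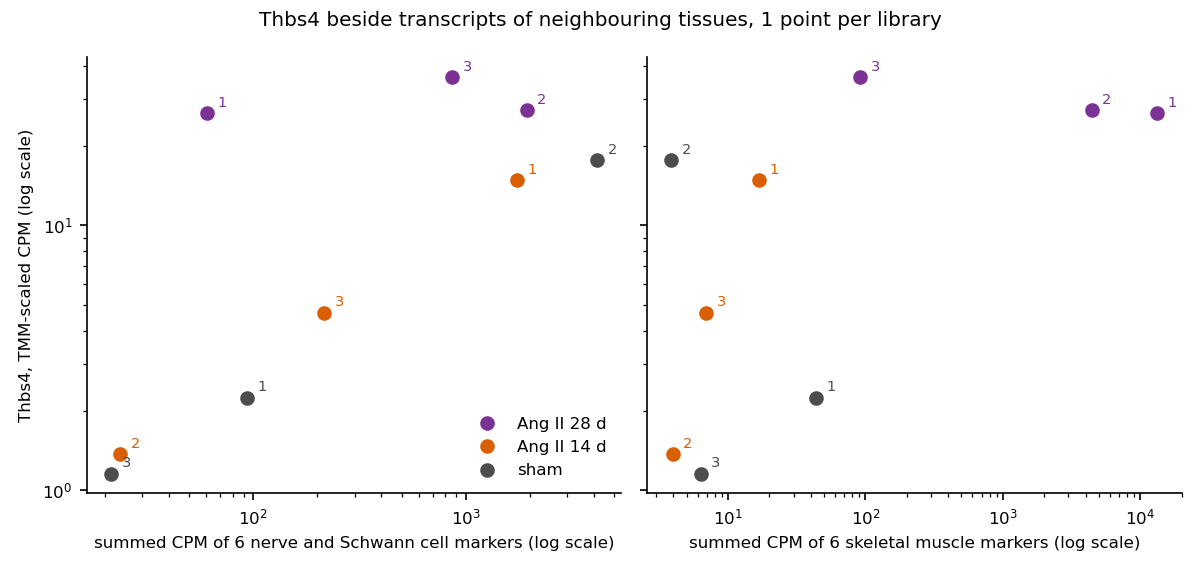
Thbs4 in TMM-scaled CPM (y axis, log scale) against the summed CPM of 6 nerve and Schwann cell markers (left) and 6 skeletal muscle markers (right), both on log scales, with 1 point per library labelled by its replicate number. The 14-day and sham points climb with the nerve markers from 1.16 to 17.7 CPM of Thbs4, while the 28-day points lie between 26.6 and 36.4 CPM, beside 60.9 to 1938 CPM of nerve markers.

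Tenascin-C is scarce in the quiet adult artery and is made during remodelling, whereas tenascin-X binds collagen in resting connective tissue. Tnc (Entrez 21923, chromosome 4, 63959785 to 64047015) had 78.6, 82.5 and 52.9 CPM at 28 days, 215, 105 and 191 CPM at 14 days, and 110.3, 69.4 and 101 CPM in sham. The 14-day libraries all exceeded the 28-day libraries, and 14-day replicate 2 lay just under the highest sham library. The log2 difference was 0.87 ± 0.32 for 14 days against sham (edgeR adjusted p = 0.162, DESeq2 adjusted p = 0.0618), -0.39 ± 0.32 for 28 days against sham (edgeR adjusted p = 0.708) and -1.26 ± 0.32 for 28 days against 14 days (edgeR adjusted p = 0.770, DESeq2 adjusted p = 0.0284). Tnxb (Entrez 81877, chromosome 17, 34660453 to 34719815) had 286, 109 and 216 CPM at 28 days, 257, 55.0 and 178 CPM at 14 days, and 395, 152 and 365 CPM in sham. Replicate 2 was the lowest Tnxb library of every group, and the groups overlapped, with log2 differences of -0.90 ± 0.61 at 14 days and -0.58 ± 0.61 at 28 days against sham (edgeR adjusted p = 0.416 and 0.799). In the RefSeq annotation Tnxb overlaps the pseudogene Cyp21a2-ps over 385 bases and a small nuclear RNA over 107 bases, and long non-coding RNAs overlap Tnc over 62285 bases, Postn over 1410.0 bases and Ccn2 over 362 bases. The overlap given for Tnc is longer than its 7772 bases of annotated exon, so it includes introns. Overlap within exons was not measured, and none of the overlapping genes is among the genes with counts. The counting is not stated to use strand, so only reads from exon bases shared with these genes, if any, would be of uncertain origin.

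The 2 tenascins were also compared within each library, a ratio that does not depend on library scaling and was chosen after the values were seen. Tnc over Tnxb, per kilobase, was 0.432, 1.19 and 0.386 in the 28-day replicates, 1.32, 2.996 and 1.69 in the 14-day replicates and 0.438, 0.716 and 0.434 in sham. The 14-day ratios lay above all others, and those of 28 days and sham overlapped. With groups of 3, the smallest two-sided p of an exact permutation test is 0.1, and this ratio was not tested. Fn1 over Postn ordered the groups alike, at 1.80, 1.60 and 1.18 for 28 days, 3.25, 4.03 and 2.49 for 14 days and 0.935, 2.07 and 1.12 for sham. Thbs1 over Thbs2 did not separate the groups, at 1.06 to 2.50 for 28 days, 1.65 to 10.1 for 14 days and 1.46 to 2.66 for sham.

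**Figure D3:**
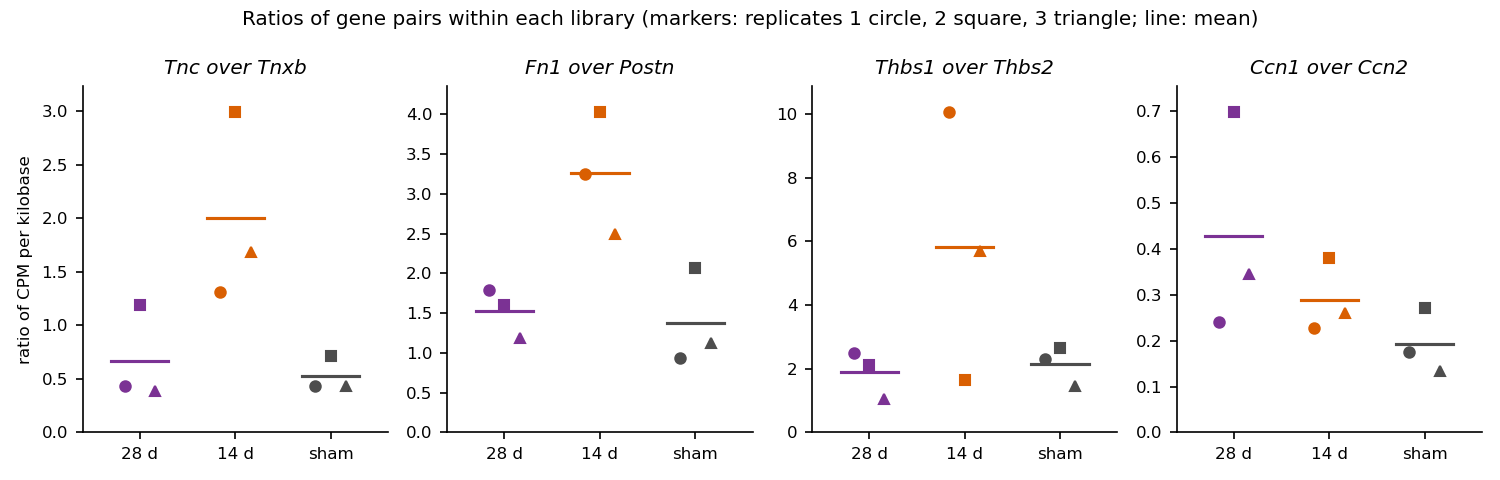
Ratios of CPM per kilobase for 4 pairs of members within each library (y axes, each from 0), by group, with symbols for replicates and a line at the mean. The 14-day ratios of Tnc over Tnxb, from 1.32 to 2.996, and of Fn1 over Postn, from 2.49 to 4.03, all lie above those of the 28-day and sham libraries.

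Periostin and SPARC bind collagen and take part in the assembly of its fibrils. Postn (Entrez 50706, chromosome 3, 54359267 to 54391041) had 804, 392 and 636 CPM at 28 days, 865, 654 and 1036 CPM at 14 days, and 1147, 508 and 1112 CPM in sham. The groups overlapped, and replicate 2 was the lowest library of each. Against sham the log2 differences were -0.11 ± 0.39 at 14 days and -0.59 ± 0.40 at 28 days (edgeR adjusted p = 0.878 and 0.613). The 14-day difference of Fn1, 1.25, was larger, but the difference between the 2 genes was not tested. Sparc (Entrez 20692, chromosome 11, 55394159 to 55420080) had 3092, 1621 and 2749 CPM at 28 days, 3429, 4605 and 2567 CPM at 14 days, and 2160.2, 1584 and 2554 CPM in sham. The lowest 14-day library lay just above the highest sham library, the 28-day and sham libraries overlapped, and the log2 difference was 0.75 ± 0.36 at 14 days and 0.24 ± 0.36 at 28 days (edgeR adjusted p = 0.254 and 0.882).

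Ccn1 and Ccn2, formerly Cyr61 and Ctgf, encode small secreted proteins that bind integrins and are textbook targets of YAP and TAZ and of serum response factor, induced within hours by stretch and growth factors. Ccn1 (Entrez 16007, chromosome 3, 145646971 to 145649985) had 91.1, 121 and 35.2 CPM at 28 days, 166, 133 and 170.1 CPM at 14 days, and 56.4, 92.1 and 104 CPM in sham. The 14-day libraries all lay above the others, the lowest of them 1.10-fold above 28-day replicate 2. Its log2 difference was 0.89 ± 0.43 for 14 days against sham (edgeR adjusted p = 0.251), -0.03 ± 0.42 for 28 days against sham and -0.92 ± 0.43 for 28 days against 14 days (edgeR adjusted p = 0.770). Ccn2 (Entrez 14219, chromosome 10, 24595442 to 24598683) had 535, 245 and 145 CPM at 28 days, 1034, 495 and 931 CPM at 14 days, and 455, 481 and 1109 CPM in sham. Sham replicate 3 was the highest Ccn2 library of all, so that 14 days and sham overlapped, and the log2 difference was 0.27 ± 0.56 at 14 days and -1.14 ± 0.57 at 28 days (edgeR adjusted p = 0.797 and 0.451). With each replicate left out in turn, the 14-day difference ranged from 0.04 (without sham replicate 1) to 0.86 (without sham replicate 3), and the 28-day difference from -1.81 (without 28-day replicate 1) to -0.55 (without sham replicate 3). At 28 days against 14 days Ccn2 differed by -1.41 ± 0.57 (edgeR unadjusted p = 0.0394, adjusted p = 0.770). In 28-day replicate 3, with the fewest skeletal muscle markers of its group (91.8 CPM), Ccn1 and Ccn2 were below every sham library. In replicate 1 both lay within the sham range, and in replicate 2 Ccn1 lay above it and Ccn2 below it. Over all alternatives, the 28-day difference from sham ranged from -1.26 to 0.35 for Ccn1 and from -2.24 to -0.55 for Ccn2. The part of skeletal muscle content was not tested. The 13 immediate early genes, which handling of tissue can also induce, summed to 602 to 730.0 CPM at 28 days, 708 to 1081 CPM at 14 days and 387 to 922 CPM in sham, and their part in the CCN levels was not tested.

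**Figure D4:**
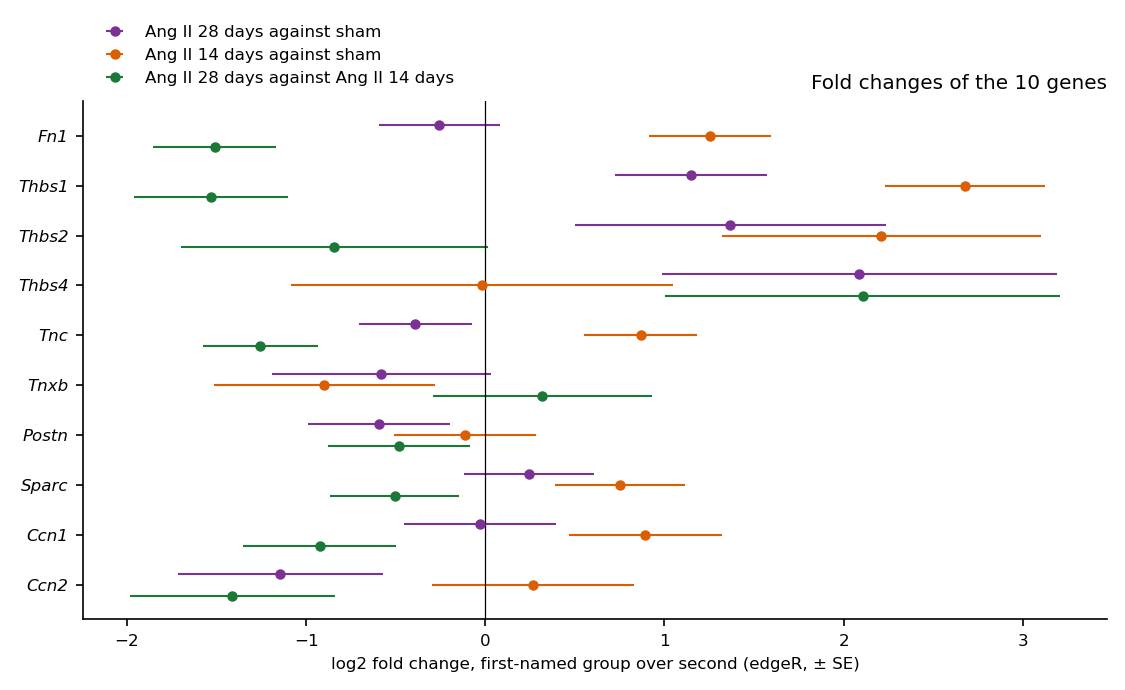
Log2 fold changes of the 10 members with SE from edgeR (x axis, the first-named group over the second) for 28 days against sham, 14 days against sham and 28 days against 14 days. Fn1, Thbs1, Thbs2, Tnc, Sparc, Ccn1 and Ccn2 lie right of 0 at 14 days against sham and left of 0 at 28 days against 14 days. Thbs4 lies near 0 at 14 days against sham and at 2.09 at 28 days against sham.

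Related genes were read from lists of family relatives, receptors and targets, none of whose members passed edgeR's adjusted threshold. Up to 3 genes per list were picked by the smallest unadjusted p for the mean of both Ang II times against sham. Their separation from sham therefore follows in part from that choice and is no further evidence. Among the 17 family relatives, 3 were higher at an unadjusted p under 0.05 at 14 days against sham and 0 lower, beside 13.1% and 10.4% of all genes, and at 28 days 0 were higher and 2 lower, beside 7.96% and 5.89%. Comp, thrombospondin-5 of cartilage and tendon, had 72.1 ± 39.0 CPM at 28 days, 220 ± 276 CPM at 14 days and 21.3 ± 11.5 CPM in sham, and Ccn4, another CCN protein, had 11.7 ± 5.32, 24.6 ± 22.6 and 5.201 ± 0.230 CPM (SD, n = 3 each). Both were above sham in all 6 Ang II libraries, which held for 2 of the 17 relatives, against 8.57% of all genes. In the 14-day replicates 1 to 3, Comp had 74.6, 538 and 46.9 CPM and Ccn4 had 12.8, 50.7 and 10.4 CPM. Both were thus highest in replicate 2, the library richest in macrophage markers. Smoc1, a SPARC relative, had 99.4 ± 31.1 CPM at 28 days, 200.1 ± 35.4 CPM at 14 days and 326 ± 176 CPM in sham. Every 28-day library was below every sham library, which held for 1 of the 17 relatives, against 9.46% of all genes.

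Of the 12 cell surface receptors, 2 were higher and 1 lower at an unadjusted p under 0.05 at 14 days against sham, beside 13.1% and 10.4% of all genes. At 28 days 1 was higher and 5 lower, beside 7.96% and 5.89%. The median log2 difference of the list was -0.05 at 14 days and -0.66 at 28 days, beside -0.07 and -0.08 over all genes tested, while that of the 10 members was 0.81 and -0.14. Itga8, whose integrin binds fibronectin and tenascin-C, had 87.1 ± 47.4 CPM at 28 days, 229 ± 146 CPM at 14 days and 875 ± 457 CPM in sham (log2 -3.33 ± 0.75 and -1.93 ± 0.71 against sham, edgeR adjusted p = 0.203 and 0.163). Itga9, part of a tenascin-C receptor, and Itgb3, part of the alpha-v beta-3 integrin that binds fibronectin, thrombospondin-1 and CCN proteins, were at 58.8 ± 17.6 and 24.3 ± 3.16 CPM at 28 days, 141 ± 41.6 and 53.3 ± 2.08 CPM at 14 days and 254 ± 107 and 72.4 ± 28.4 CPM in sham. All 3 receptor genes were below sham in every 28-day library, where the smooth muscle markers were below sham as well, and the part of smooth muscle content in these levels was not tested.

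Among 8 TGF-beta targets and ligands, 1 was higher and 1 lower at an unadjusted p under 0.05 at 14 days against sham, beside 13.1% and 10.4% of all genes, and 0 were higher and 5 lower at 28 days, beside 7.96% and 5.89%. Tgfb1, which encodes the ligand that thrombospondin-1 can activate, had 99.1 ± 18.8 CPM at 28 days, 175 ± 110 CPM at 14 days and 52.1 ± 16.1 CPM in sham, with all 6 Ang II libraries above sham. That separation held for 1 of the 8 genes, against 8.57% of all genes. In the 14-day replicates 1 to 3, Tgfb1 had 84.1, 297 and 145 CPM. Ldlrad4 and Pmepa1, which are TGF-beta targets that restrain the signal, had log2 differences from sham of -0.99 ± 0.31 and -0.98 ± 0.38 at 28 days and -0.71 ± 0.31 and -0.45 ± 0.37 at 14 days. Of 19 YAP and TAZ targets other than Ccn1 and Ccn2, 18 were tested. At an unadjusted p under 0.05 against sham, 3 were higher and 2 lower at 14 days, beside 13.1% and 10.4% of all genes. By the same threshold, 2 were higher and 4 lower at 28 days, beside 7.96% and 5.89%. The median log2 difference of that list was 0.02 at 14 days and -0.05 at 28 days. Igfbp3 and Nuak2 were above sham in all 6 Ang II libraries (log2 2.81 ± 0.80 and 1.85 ± 0.53 at 28 days, 2.86 ± 0.80 and 2.49 ± 0.54 at 14 days), and Arhgef17 was below sham in all 6 (-1.39 ± 0.28 and -0.75 ± 0.28). Of the 18 tested genes, 2 were thus wholly above sham and 1 wholly below, against 8.57% and 3.97% of all genes. In the 14-day replicates 1 to 3, Igfbp3 had 51.3, 330 and 45.6 CPM and Nuak2 had 7.99, 23.9 and 17.2 CPM. Both were thus highest in replicate 2, the library richest in macrophage markers. The 13 immediate early genes had a median log2 difference of 0.77 at 14 days. At an unadjusted p under 0.05, 4 were higher and 0 lower, beside 13.1% and 10.4% of all genes. At 28 days the median was 0.20, with 1 higher and 1 lower by the same threshold, beside 7.96% and 5.89%. Junb, Egr2 and Zfp36 of that list were 1.92 ± 0.46, 1.36 ± 0.41 and 1.15 ± 0.29 log2 higher at 14 days than in sham. All 3 had their highest level in 14-day replicate 2, where Junb had 254 CPM, against 115 and 74.2 CPM in replicates 1 and 3.

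**Figure D5:**
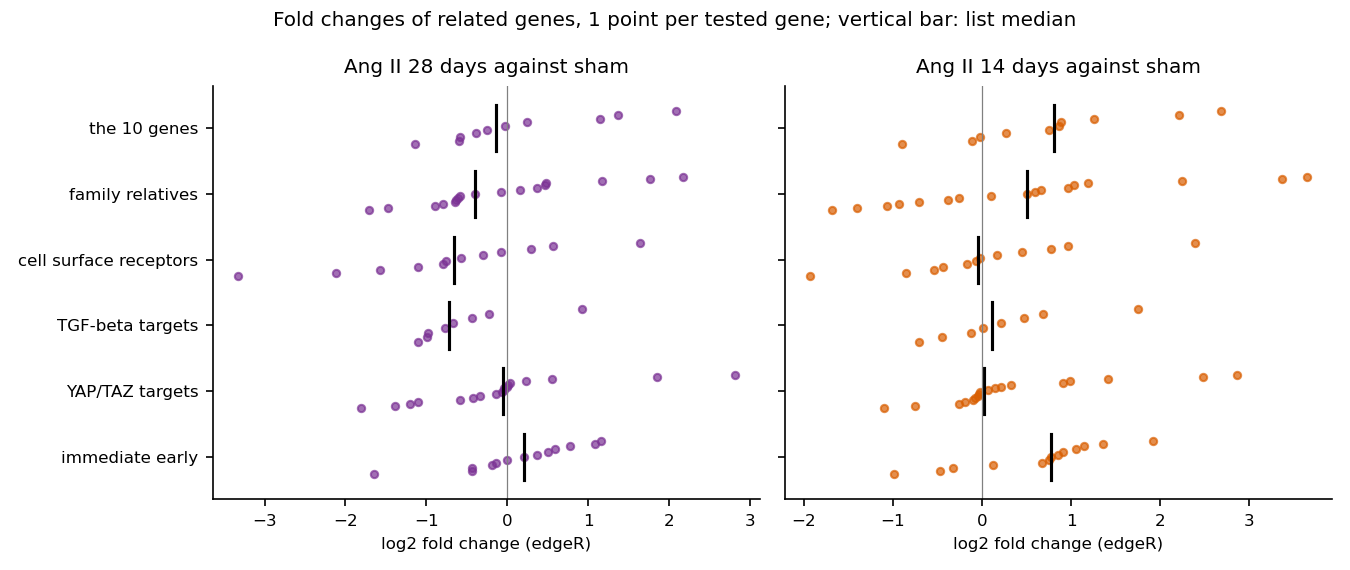
Log2 fold changes (x axis, edgeR) of the 10 members and of 5 lists of related genes, 1 point per tested gene and a bar at the list median, for 28 days against sham (left) and 14 days against sham (right). The median of the 10 members is -0.14 at 28 days and 0.81 at 14 days, and that of the receptors is -0.66 and -0.05.

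The genes whose levels ran most like each member were sought among 10740 genes of at least 10 CPM on average, by Pearson's r of log2 CPM over the 9 libraries. These values are descriptions, since the libraries share group differences and differences in tissue content. Thbs1 ran closest to Serpina3n (r = 0.982, Spearman's rho = 0.983) and also ran close to Igfbp4 (0.958). Sparc ran closest to Adamts2 (r = 0.991), Loxl2 (0.971) and Clec11a (0.969). The closest gene was Gja4 for Fn1 (r = 0.920), and Kctd20 was closest to Thbs4 (0.966). For Thbs2, whose level was by far highest in 14-day replicate 2, Itga11 was second to Mdfic (r = 0.986 and 0.987). Spearman's rho was 0.933 for Itga11 and 0.783 for Mdfic. For Tnc, Tnxb and Postn the closest genes were Msn (0.905), Kat2b (0.977) and Mfap4 (0.965). Ccn1 ran closest to Dnttip1 (0.922) and Ccn2 to Rrp8 (0.904), followed by Rnd3 (0.883), with Spearman's rho of 0.85, 0.933 and 0.733. Among the members themselves, the highest r was 0.842, between Thbs1 and Sparc, followed by 0.786 between Fn1 and Tnc, and the lowest was -0.602, between Thbs4 and Postn.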

How the data were processed

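Per the submitters' processing notes, the tools were HISAT2 2.2.1, Bowtie2 2.4.5 and RSEM 1.3.1 with genome build GRCm38.p6, and they give no strand setting. The deposited values are expected counts per gene, as the authors' files hold them, of which 9.77% to 11.0% were not whole. They were rounded and fitted with edgeR 4.0.16 in R 4.3.3 (TMM scaling, filter on low counts by group, robust quasi-likelihood fit, 1 coefficient per group, all 9 libraries), which tested 14741 of 18830 genes with Benjamini-Hochberg adjustment over all of them at 0.05. Standard errors are the log2 fold change divided by the square root of F. Values per length are TMM-scaled CPM over annotated exon length, and replace the FPKM that had been planned, since the files used hold expected counts alone. DESeq2 1.42.0 and limma 3.58.1, other scalings and filters, a replicate block and left-out libraries were alternatives. The fit was checked on simulated counts. edgeR called 6% of simulated 2-fold changes at 14 days against sham and 2% at 28 days, and 40% and 38% of 4-fold changes. DESeq2 called 22% and 18% of 2-fold changes, and 74% and 80% of 4-fold changes. The absence of an edgeR call therefore does not show that a gene was unchanged. These rates cover detection only. Calls of unchanged genes in the simulation are not given here, so the rates do not rank the 2 tools. No 2 libraries held identical values. Gene identifiers were matched to RefSeq for 18775 genes, and 7 of 10 members had a promoter window. Members and lists were chosen with earlier results of these data known. All members are named, with, from each related list, the 3 genes of smallest unadjusted p for the mean of both Ang II times against sham. Itga4 and Cd47 are named besides, as the receptors wholly above sham. The 3 genes most like each member were ranked. Motifs searched, on both strands, were the TATA box as TATAAA, the TEAD motif as GGAATG, the AP-1 motif as TGANTCA and the serum response element core by its consensus. The last 2 were held by 7.81% and 1.63% of the windows outside chromosome 18. The Tnxb window held the AP-1 motif, and no member window held the serum response element core.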

Additional observations from a re-analysis of the deposited data

How the results depend on the processing

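Of 750 alternative values of the members' differences, 722 kept their direction and side of the threshold, 21 changed direction and 7, all by DESeq2, passed the threshold. DESeq2 called 1902 genes at 14 days against sham, 996 at 28 days against sham, 126 at 28 days against 14 days and 1761 for the mean of both times, where edgeR called 0, and the cause was not tested. Fitting only the groups compared gave 1 gene at 14 days, and leaving out the 2 libraries rich in skeletal muscle (28-day replicates 1 and 2, so that replicate 3 was assumed to vary like the other groups) gave 1 gene at 14 days and 1 for the mean. Leaving out each replicate in turn gave 0 to 7 genes at 28 days against sham (5 without sham replicate 2, 7 without 28-day replicate 3) and 0 to 5 for the mean (5 without sham replicate 2).

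With the replicate number as a block, 1 gene was called at 14 days against sham and 1 for the mean, and Thbs4 at 14 days had a log2 difference of 0.36. Same-numbered libraries had correlations of their deviations between -0.553 and 0.646, so the numbers were not taken as pairs.

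The differences that changed direction were mostly near 0. Thbs4 at 14 days against sham (-0.02) was 0.13 and 0.30 by limma on log2 of CPM per kilobase plus 1 and plus 0.1, 0.87 without the 3 nerve-rich libraries, and -1.22 (without 14-day replicate 1) to 2.04 (without sham replicate 2) with each replicate left out in turn. The same range was -0.41 to 0.093 for Postn at 14 days against sham, -0.42 to 0.35 for Ccn1 at 28 days against sham, -0.77 to 0.15 for the Ccn2 mean of both times, and, at 28 days against 14 days, -0.090 to 0.80 for Tnxb and -1.30 to 0.98 for Thbs2, both changed in direction without 14-day replicate 2. Without the nerve-rich libraries Ccn2 at 14 days was -0.13 and the Tnc mean was -0.10, and without the skeletal muscle libraries the Ccn1 mean was -0.18. Over all alternatives, beyond single replicates left out, Ccn1 at 28 days against sham ranged from -1.26 to 0.35. The biological coefficient of variation over all genes was 51.3%.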
